A study of Rattus norvegicus with 18 samples.

Results

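The genes described here make, sense, export and break down sphingosine-1-phosphate, or act on the ceramide from which sphingosine is released. The set was given by name as 10 genes, namely the kinases Sphk1 and Sphk2, the receptors S1pr1, S1pr2 and S1pr3, the exporter Spns2, the lyase Sgpl1, the phosphatase Sgpp1, the acid ceramidase Asah1 and the glucosylceramide synthase Ugcg. Of the 17927 gene symbols listed in astrocytes or microglia, 9 of the 10 were found, and Sgpp1 was not analysed here. The other genes of sphingolipid metabolism were followed as a second list of 49 symbols, of which 46 were found.

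Ceramide is the hub of sphingolipid metabolism. Acid ceramidase cleaves it in the lysosome to sphingosine, which the sphingosine kinases phosphorylate, while glucosylceramide synthase diverts ceramide into glycosphingolipids and gangliosides. Sphingosine-1-phosphate leaves the cell through transporters such as Spns2 and acts on G protein-coupled receptors, or is degraded irreversibly by the lyase. In the brain both glial cell types carry receptors of this family, which are known for roles in cell migration, proliferation and inflammatory signaling.

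RNA was sequenced from primary astrocytes and primary microglia of the rat, isolated from the cortex of postnatal Sprague–Dawley pups, genotype WT. Cells of each type were left untreated as the control group, or were treated with Aβ42 fibrils or with Aβ40 fibrils grown from the corresponding amyloid-β peptides, and were collected at 24 h. Each of the 6 groups had 3 libraries, 18 in all, and the comparisons ask how each fibril changes each cell type and whether the fibrils or the cell types differ. Microglia were shaken off the mixed glial cultures that held the astrocytes, so that each culture could hold some cells of the other type, and nothing states that replicates came from separate animals or cultures, so p-values measure the spread between these libraries, which may be technical.

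The counts on genes ranged from 3674043 to 19013919 per astrocyte library and from 2271834 to 22274367 per microglia library, the lowest being Aβ40 replicate 3 of the microglia, followed by their Aβ42 replicate 1 with 2613723. The control libraries carried the markers of their labels, since all 6 astrocyte markers were higher in control astrocytes and 6 of the 7 microglial markers were higher in control microglia. Microglial markers were nevertheless present in the control astrocytes, summing to 203 to 257 CPM (counts relative to the scaled library total, here within a cell type), and fell to between 13.3 and 18.7 CPM with Aβ42 fibrils and between 11.6 and 12.2 CPM with Aβ40 fibrils. In microglia their sum fell from between 3442 and 4288 CPM to between 998 and 1193 CPM with Aβ42 fibrils and between 1116 and 1175 CPM with Aβ40 fibrils. Most of that fall was Csf1r, the receptor of colony-stimulating factor 1, which went from 2494 ± 222 CPM to 170 ± 21.7 CPM and 167 ± 12.6 CPM (SD, n = 3). Of the 7 microglial markers 5 fell and 1 rose with Aβ42 fibrils and 6 fell and 1 rose with Aβ40 fibrils, the one that rose being the integrin gene Itgam, from 372 ± 23.3 CPM to 693 ± 48.0 CPM and 766 ± 16.5 CPM. The part of these shifts in the results below was not tested, and in bulk RNA fewer cells of a type and less RNA per cell cannot be told apart.

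The receptors differed in how they were divided between the cell types and in how they moved with fibrils, so the DNA just before their transcription starts is shown. Each sequence is the 250 bases before the start, from the RefSeq table of assembly GRCr8, and capitals mark the GC box GGGCGG on either strand, the binding motif of Sp1-type factors.
S1pr1, chr2:206314071-206314320, minus strand: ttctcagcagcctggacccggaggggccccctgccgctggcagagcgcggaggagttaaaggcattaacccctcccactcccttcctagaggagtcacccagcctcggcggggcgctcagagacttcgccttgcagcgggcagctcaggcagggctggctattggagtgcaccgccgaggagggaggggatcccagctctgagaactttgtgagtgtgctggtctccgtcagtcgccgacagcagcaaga
S1pr2, chr8:27790345-27790594, minus strand: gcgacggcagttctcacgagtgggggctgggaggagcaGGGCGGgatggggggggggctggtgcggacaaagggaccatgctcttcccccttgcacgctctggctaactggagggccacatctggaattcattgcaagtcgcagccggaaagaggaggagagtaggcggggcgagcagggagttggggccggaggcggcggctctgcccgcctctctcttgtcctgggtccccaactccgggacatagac
S1pr3, chr17:13946014-13946263, minus strand: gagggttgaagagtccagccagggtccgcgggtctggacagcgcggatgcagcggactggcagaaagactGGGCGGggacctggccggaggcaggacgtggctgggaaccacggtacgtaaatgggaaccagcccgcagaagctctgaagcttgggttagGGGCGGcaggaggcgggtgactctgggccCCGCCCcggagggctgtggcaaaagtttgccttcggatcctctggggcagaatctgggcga
The GC box is absent from the S1pr1 window, occurs once in that of S1pr2 and occurs 3 times in that of S1pr3, and 30.5% of the 33469 promoters in the table hold it. The GC content was 64.8% for S1pr1, 66.4% for S1pr2 and 66% for S1pr3, so that base composition hardly separates them. Of the other motifs searched, AP-1 (TGANTCA, in 6.34% of all promoters), CRE (TGACGTCA, 1.59%), STAT (TTCNNNGAA, 7.67%), NF-kB (0.666%), IRF (3.41%) and the E-box (CACGTG, 5.59%), none was found on either strand of these windows. A match is a string of letters and not a binding site, and no match says only that these letters are not in the window. Assembly GRCr8 is not the rn5 assembly to which the reads were aligned, and it was used for sequence and gene identity alone.

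**Figure D1:**
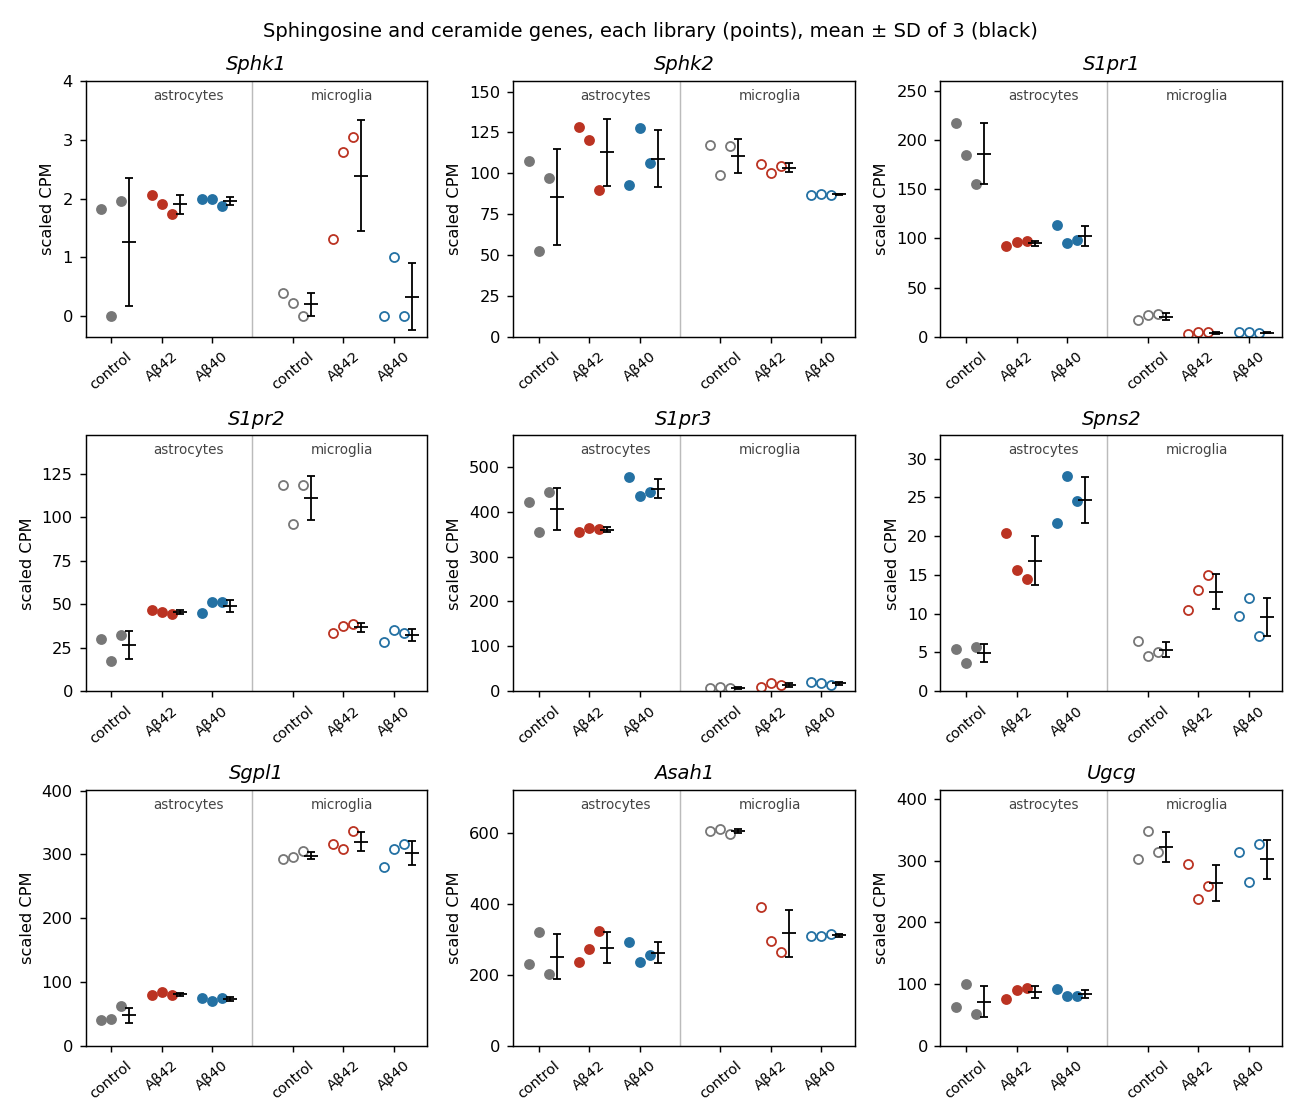
Level of each member in each library, in scaled CPM (all 18 libraries scaled together) on the vertical axis, for control, Aβ42 and Aβ40 fibril-treated cells on the horizontal axis. Filled points are astrocyte libraries, open points are microglia libraries, and lines mark the mean and SD of 3 libraries. S1pr1 and S1pr3 stand higher in astrocytes, and S1pr2, Sgpl1, Asah1 and Ugcg stand higher in control microglia.

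The plot of levels by library shows how the set was divided between the untreated cell types. In control cells, astrocytes were richer in the receptors S1pr1 and S1pr3, whereas microglia were richer in S1pr2, the lyase, acid ceramidase and glucosylceramide synthase. Counts were compared by edgeR's quasi-likelihood test, with p-values adjusted by Benjamini-Hochberg over all genes tested and a call at an adjusted p under 0.05. By this test 3 of the 9 members were higher in astrocytes and 4 were lower, against 34.5% and 34.2% of the 11584 genes tested (4000 and 3967 genes, or 5047 and 3018 with scaling by library totals, which kept the direction of every member but Spns2). The members called higher include Sphk1, whose low counts overlap between the cell types and whose call was lost without astrocyte control replicate 3. Cell type and culture preparation cannot be told apart in this comparison.

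S1pr3, a receptor coupled to several G protein classes, showed the widest difference. Its level was 423, 354 and 444 CPM in the 3 control astrocyte libraries and 7.60, 10.1 and 5.90 CPM in the 3 control microglia libraries, a 52.3-fold difference (log2 difference 5.71, SE 0.218, adjusted p = 3.83e-14). S1pr1, the Gi-coupled receptor, was 9.20-fold higher in astrocytes, at 218, 185 and 156 CPM against 16.5, 21.8 and 22.6 CPM (adjusted p = 1.48e-12). The groups of libraries do not overlap for either receptor.

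S1pr2, the other receptor of the set, had the opposite distribution. It was at 29.8, 17.1 and 32.0 CPM in control astrocytes and at 118, 96.2 and 118 CPM in control microglia, 4.16-fold lower in astrocytes (log2 difference -2.06, adjusted p = 3.48e-09). The lyase Sgpl1 was 6.15-fold lower in astrocytes (-2.62, adjusted p = 3.39e-12), Ugcg 4.53-fold lower (-2.18, adjusted p = 3.49e-09) and Asah1 2.42-fold lower (-1.27, adjusted p = 1.65e-06). Among the members, the lyase, acid ceramidase and glucosylceramide synthase were thus on the microglial side. The phosphatases Plpp1 and Plpp3 of the second list, given below, were on the astrocyte side. Sphk2 (log2 difference -0.37, 95% interval -0.78 to 0.04) and Spns2 (-0.09, interval -0.61 to 0.44) did not pass the test.

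Among the kinases, Sphk1 was scarce in every library and Sphk2 was the one with ample counts. The Sphk1 counts in control astrocytes were 7, 0 and 30, or 1.83, 0 and 1.95 CPM, and in control microglia 3, 1 and 0 counts. A count of 3 was taken as the detection limit. Scaled within a cell type, it is 0.160 to 0.835 CPM in the astrocyte libraries and 0.130 to 1.38 CPM in the microglia libraries. The log2 difference between control astrocytes and control microglia by edgeR was 2.68 (SE 0.839, adjusted p = 0.00822). It fell to 1.89 with an adjusted p of 0.152 without astrocyte control replicate 3, so this call rests on that library. Sphk1 failed the filter on low counts in microglia alone and entered the fit of all libraries through those with higher counts. This call is therefore not on a par with those of the other members.

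With fibrils, Sphk1 did not differ detectably from the control in astrocytes. It was counted 32, 20 and 15 times with Aβ42 fibrils (2.06, 1.91 and 1.73 CPM) and 20, 40 and 30 times with Aβ40 fibrils (1.99, 2.00 and 1.87 CPM). The fibril-treated libraries all lie between 1.73 and 2.06 CPM, around control replicates 1 and 3, and control replicate 2, with 0 counts, lies apart. The log2 fold change was 0.36 with Aβ42 (95% interval -0.70 to 1.42, adjusted p = 0.601) and 0.39 with Aβ40 (interval -0.64 to 1.42, adjusted p = 0.567). Without control replicate 2 these values became -0.02 and 0.0064. The annotated lncRNA Khps1a overlaps Sphk1 on chromosome 10 of GRCr8, and whether the counting used strand is not stated. Khps1a itself had 0 to 6 counts in the astrocyte libraries.

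In microglia, Sphk1 counts were higher in libraries treated with Aβ42 fibrils. They were 3, 1 and 0 in the control libraries, 3, 57 and 47 with Aβ42 fibrils and 0, 4 and 0 with Aβ40 fibrils. Scaled for depth, the Aβ42 libraries stood at 1.31, 2.8 and 3.06 CPM, above all control libraries (at most 0.393 CPM) and all Aβ40 libraries (at most 0.999 CPM), with the lowest of them resting on 3 counts. Scaled within the cell type, the limit of 3 counts was 1.38 CPM in Aβ40 replicate 3, above Aβ42 replicate 1 at 1.20 CPM. The 0 counts of that Aβ40 library therefore do not show a level below Aβ42 replicate 1. The summed counts of 4, 107 and 4 give a ratio of 12.5 for Aβ42 against control (exact 95% interval 4.76 to 46.9), 1.87 for Aβ40 against control (0.349 to 10.1) and 6.69 for Aβ42 against Aβ40 (2.54 to 25), and these intervals cover counting error only. The gene did not pass the filter on low counts and so has no test beside the others. In a fit of 13980 genes without the filter, the log2 fold change was 3.52 for Aβ42 against control (SE 0.650, adjusted p = 3.59e-04) and 0.84 for Aβ40 against control (adjusted p = 0.649). In the same fit Aβ42 against Aβ40 was 2.67 (adjusted p = 0.0224). Leaving out any 1 control or Aβ42 library kept the Aβ42 value against control between 2.98 and 4.6 with adjusted p-values of 1.01e-07 to 0.00288. The adjusted p of the difference between the fibrils was above 0.05 without Aβ42 replicate 2 (adjusted p = 0.0570), Aβ42 replicate 3 (0.0642), Aβ40 replicate 1 (0.107) or Aβ40 replicate 3 (0.0887), so that call depends on the libraries included. Without Aβ40 replicate 2, the one Aβ40 library with counts, it was called (adjusted p = 0.0339), at a fitted fold against libraries that are all at 0.

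Sphk2, the kinase found largely in the nucleus and mitochondria, was counted 233 times or more in each astrocyte library and 172 times or more in each microglia library. In astrocytes it stood at 107, 52.3 and 97.2 CPM in the controls, 129, 120 and 89.8 CPM with Aβ42 fibrils and 92.9, 128 and 106 CPM with Aβ40 fibrils. The groups overlap, and neither fibril passed the test (log2 fold change 0.38, adjusted p = 0.279, and 0.33, adjusted p = 0.350). In microglia the levels were 117, 98.8 and 117 CPM in the controls, 106, 100.3 and 104 CPM with Aβ42 and 86.8, 87.4 and 86.9 CPM with Aβ40. The Aβ40 libraries lie below every control, at a log2 fold change of -0.35 (adjusted p = 0.0183), a small difference that lost its call without control replicate 1, control replicate 3, Aβ40 replicate 1 or Aβ40 replicate 2 (adjusted p 0.0608 to 0.112).

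**Figure D2:**
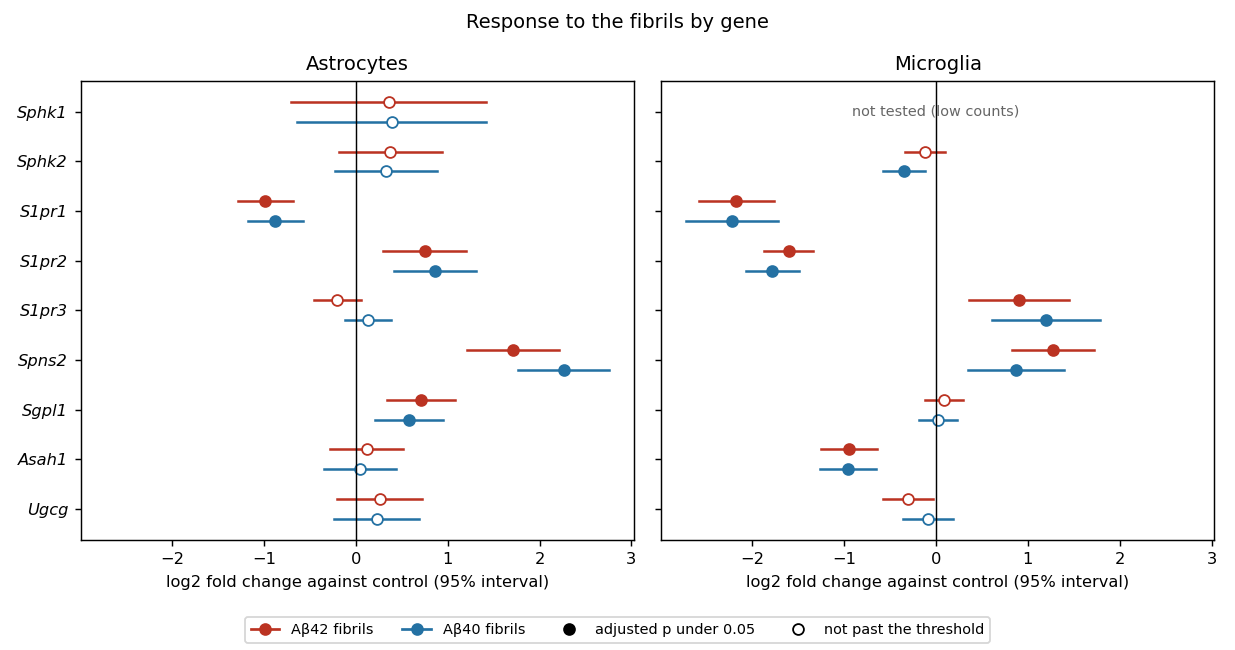
Log2 fold change of each member with each fibril (horizontal axis) in astrocytes and microglia, by edgeR. Bars are 95% intervals, filled points have an adjusted p under 0.05, and Sphk1 in microglia has no point because its counts were too low to pass the filter. S1pr1 lies left of 0 and Spns2 right of 0 in all panels, and S1pr2 lies right of 0 in astrocytes and left of 0 in microglia.

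Among the receptors, S1pr1 fell with both fibrils in both cell types, whereas S1pr2 changed in opposite directions. In astrocytes S1pr1 went from 218, 185 and 156 CPM in the controls to 92.3, 96.4 and 97.1 CPM with Aβ42 and 114, 95.5 and 97.9 CPM with Aβ40. The treated libraries all lie below the lowest control, and the log2 fold changes were -0.98 (SE 0.136, adjusted p = 1.94e-04) and -0.88 (SE 0.136, adjusted p = 4.85e-04). In microglia S1pr1 went from 16.5, 21.8 and 22.6 CPM to 3.06, 4.62 and 4.88 CPM with Aβ42 and 4.84, 4.25 and 3.54 CPM with Aβ40. These were log2 fold changes of -2.17 (SE 0.185, adjusted p = 1.21e-06) and -2.22 (SE 0.228, adjusted p = 7.32e-06), or 4.51-fold and 4.66-fold lower. S1pr1 is also strongly expressed by endothelial cells, whose markers summed to between 161 and 173 CPM in the control microglia, between 35 and 59.2 CPM with Aβ42 and between 79.2 and 102.5 CPM with Aβ40. Most of that sum was Flt1, which macrophages can also express, and Cldn5 was at 0 in all libraries. Of the 3 endothelial markers tested 2 fell with Aβ42, and with Aβ40 1 fell and 1 rose, the latter being the cadherin gene Cdh5, from 4.93 ± 0.363 CPM to 16.5 ± 3.70 CPM (adjusted p = 6.84e-04). The part of these markers in the S1pr1 result was not tested.

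S1pr2 rose in astrocytes and fell in microglia. In astrocytes the controls stood at 29.8, 17.1 and 32.0 CPM, the Aβ42 libraries at 46.7, 45.3 and 44.3 CPM and the Aβ40 libraries at 45.0, 51.0 and 50.9 CPM. The groups do not overlap, at log2 fold changes of 0.75 (SE 0.204, adjusted p = 0.0138) and 0.86 (SE 0.203, adjusted p = 0.00698). In microglia S1pr2 went from 118, 96.2 and 118 CPM to 33.6, 37.6 and 38.6 CPM with Aβ42 and 28.5, 35 and 33.4 CPM with Aβ40. It was 3.04-fold lower with Aβ42 (log2 fold change -1.60, SE 0.124, adjusted p = 4.90e-07) and 3.45-fold lower with Aβ40 (-1.78, SE 0.132, adjusted p = 4.07e-07). With fibrils the level in every astrocyte library lay above that in every microglia library, the reverse of the untreated cells, although this order was not tested. S1pr2 had higher levels in control microglia, and the sum of the microglial markers fell with fibrils in both cell types. The part of these markers in the S1pr2 results was not tested.

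S1pr3 rose in microglia from a low level, and in astrocytes it did not pass the test. In microglia it went from 7.60, 10.1 and 5.90 CPM in the controls to 8.29, 18.2 and 14.1 CPM with Aβ42 and 19.6, 18.7 and 14.2 CPM with Aβ40. The Aβ40 libraries all lie above the controls, whereas Aβ42 replicate 1 lies among them. The log2 fold changes were 0.90 (SE 0.247, adjusted p = 0.00882) and 1.20 (SE 0.269, adjusted p = 0.00338), and without Aβ42 replicate 2 the former was 0.64 with an adjusted p of 0.0744. Other markers moved in the same libraries. Astrocyte markers summed to 141 to 153 CPM in the control microglia, 98.2 to 117 CPM with Aβ42 and 136 to 138 CPM with Aβ40, and the astrocyte markers that passed the test were 1 higher and 1 lower of 5 with Aβ42 and 2 higher and 1 lower with Aβ40. The higher one with both fibrils was Gja1, at log2 fold changes of 0.73 (adjusted p = 0.0155) and 1.55 (adjusted p = 1.45e-04). Fibroblast markers summed to 55.1 to 67.4 CPM in the control microglia, 134 to 161 CPM with Aβ42 and 118 to 125 CPM with Aβ40. Of the 4 fibroblast markers 3 rose with Aβ42, and with Aβ40 2 rose and 1 fell. Most of the rise was Dcn, a matrix proteoglycan gene, from 0.427 ± 0.413 CPM to 71.1 ± 12 CPM and 64.6 ± 3.82 CPM, while the collagen gene Col3a1 fell with Aβ40 (log2 fold change -2.33, adjusted p = 7.81e-04). The part of these markers in the S1pr3 result was not tested.

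In astrocytes, the S1pr3 level was 423, 354 and 444 CPM in the controls, 355, 365 and 361 CPM with Aβ42 and 477, 435 and 444 CPM with Aβ40. The log2 fold changes against the control were -0.20 (95% interval -0.45 to 0.05, adjusted p = 0.207) and 0.13 (interval -0.12 to 0.39, adjusted p = 0.406). Without control replicate 2 the value with Aβ42 was -0.28, with an adjusted p of 0.0219, so the lack of a call there rests on 1 library.

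Spns2, which carries sphingosine-1-phosphate out of the cell, was the member that rose in every comparison with the control. In astrocytes it went from 5.49, 3.59 and 5.72 CPM in the controls to 20.4, 15.7 and 14.4 CPM with Aβ42 and 21.7, 27.7 and 24.6 CPM with Aβ40. The lowest treated library lies well above the highest control, at 3.27-fold with Aβ42 (log2 fold change 1.71, SE 0.226, adjusted p = 1.36e-04) and 4.80-fold with Aβ40 (2.26, SE 0.223, adjusted p = 1.69e-05). In microglia it went from 6.42, 4.53 and 5.06 CPM to 10.5, 13.0 and 15 CPM with Aβ42 and 9.67, 12 and 7.08 CPM with Aβ40. The groups do not overlap, at 2.41-fold (log2 fold change 1.27, adjusted p = 2.60e-04) and 1.83-fold (0.87, adjusted p = 0.0119). The Aβ40 value in microglia was 0.67 with an adjusted p of 0.0910 without Aβ40 replicate 2.

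The lyase Sgpl1, which cleaves sphingosine-1-phosphate irreversibly, rose in astrocytes. It stood at 39.7, 42 and 61.5 CPM in the control astrocytes, 78.7, 83.6 and 79.0 CPM with Aβ42 and 74.6, 69.3 and 75.3 CPM with Aβ40. The treated libraries lie above all controls, at log2 fold changes of 0.71 (SE 0.168, adjusted p = 0.00657) and 0.58 (SE 0.168, adjusted p = 0.0213). The Aβ40 call was lost without control replicate 1, Aβ40 replicate 1 or Aβ40 replicate 3 and in a fit of the compared groups alone (adjusted p 0.0554 to 0.0695). In microglia, where its level was 293 to 305 CPM in the controls, 308 to 337 CPM with Aβ42 and 281 to 317 CPM with Aβ40, the log2 fold changes were 0.09 (95% interval -0.12 to 0.29) and 0.02 (interval -0.18 to 0.23).

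Asah1, the lysosomal ceramidase whose loss causes Farber disease, fell in microglia. It went from 607, 611 and 598 CPM in the controls to 392, 296 and 264 CPM with Aβ42 and 310, 309 and 315 CPM with Aβ40. The treated libraries lie far below the controls, at 1.93-fold lower with Aβ42 (log2 fold change -0.95, SE 0.139, adjusted p = 1.24e-04) and 1.94-fold lower with Aβ40 (-0.96, SE 0.140, adjusted p = 1.51e-04). In astrocytes Asah1 was at 201 to 322 CPM in the controls, 236 to 323 CPM with Aβ42 and 235 to 293 CPM with Aβ40. The groups overlap widely, with log2 fold changes of 0.12 (95% interval -0.28 to 0.52) and 0.05 (interval -0.35 to 0.44).

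Ugcg, the first enzyme of glycosphingolipid synthesis, did not pass the test in either cell type with all libraries and the scaling used here. In astrocytes it was at 63.0, 99.9 and 51.7 CPM in the controls, 76.0, 90.9 and 93.1 CPM with Aβ42 and 91.6, 80.7 and 80.2 CPM with Aβ40. Control replicate 2 stands above the other controls, and without it the log2 fold changes of 0.26 and 0.23 became 0.59 (adjusted p = 0.00269) and 0.56 (adjusted p = 0.00438). That library also had the lowest control level of Sphk1, Sphk2, S1pr2, S1pr3 and Spns2 and the highest of Asah1. In it 34.2% of reads were on no gene or on several genes, the highest share of the astrocyte libraries, followed by 28.9% in control replicate 1. Its deposited table is named in another form than most of the others, for a reason not stated in the sources used here. In microglia Ugcg was at 302, 349 and 314 CPM in the controls, 295, 237 and 259 CPM with Aβ42 and 315, 266 and 327 CPM with Aβ40, at log2 fold changes of -0.30 (adjusted p = 0.0569) and -0.09 (adjusted p = 0.614). Without Aβ42 replicate 1 the former was -0.41 with an adjusted p of 0.00142, and with scaling by library totals it was -0.33 with an adjusted p of 0.0242.

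Counted over the set, 3 of the 9 members tested in astrocytes rose with Aβ42 (S1pr2, Sgpl1 and Spns2) and 1 fell (S1pr1), against 16.5% and 20.4% of the 11690 genes tested. With Aβ40 the same 3 rose and the same 1 fell, against 14.9% and 18.4%. Both comparisons share the control libraries, so they are not independent. In microglia 8 members were tested, and 2 rose with Aβ42 (S1pr3 and Spns2) while 3 fell (S1pr1, S1pr2 and Asah1), against 27.1% and 26.6% of 10837 genes. With Aβ40 fibrils 2 rose and 4 fell, Sphk2 being the addition, against 19.6% and 21.4%. No tested member reached the 5-fold size that the study used for regulated genes, which 2.47% to 3.69% of all genes reached in 1 direction in these 4 comparisons. Sphk1 in microglia, which failed the filter and is outside this count, was past that size (2.32 on the log2 scale) with Aβ42. Its log2 fold change was 3.52 in the fit without the filter, an estimate on low counts. The median log2 fold change of the members was 0.36 and 0.33 in astrocytes and -0.21 and -0.22 in microglia, beside medians of all genes between -0.0047 and 0.0096 in these 4 comparisons.

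The fibrils were not distinguished by the members that were tested. In astrocytes 0 of 9 members were called between Aβ42 and Aβ40 by edgeR, where 0.0599% of all genes were higher and 0.0257% lower, and 2 members had an unadjusted p under 0.05. These were S1pr3, at a log2 difference of -0.33 (95% interval -0.58 to -0.08, adjusted p = 0.450), and Spns2, at -0.55 (interval -0.97 to -0.13, adjusted p = 0.460). In a fit of the Aβ42 and Aβ40 groups alone S1pr3 was called lower with Aβ42 (adjusted p = 0.0367). In microglia 0 of 8 were called, where 11.3% of all genes were higher and 9.01% lower, and 1 had an unadjusted p under 0.05. That was Sphk2, at 0.23 (interval 0.0015 to 0.46, adjusted p = 0.123). The widest interval in microglia was that of S1pr1, -0.52 to 0.62, and the narrowest was that of Sgpl1, -0.14 to 0.27. Without Aβ42 replicate 1, Ugcg was called lower with Aβ42 than with Aβ40 (log2 difference -0.32, adjusted p = 0.0137). Microglial Sphk1 was not among the 8. In the edgeR fit without the filter it was called higher with Aβ42 than with Aβ40 (2.67, adjusted p = 0.0224), a call that depended on the libraries included.

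The responses of the cell types were compared directly as the difference of the log2 fold changes, astrocytes minus microglia, in a fit of all 18 libraries. With Aβ42 fibrils 4 members of 9 had a higher value in astrocytes and 2 a lower one, against 18% and 19.3% of 11584 genes. With Aβ40 fibrils there were 5 and 1, against 16.5% and 16.0%. S1pr2 differed most among the members that passed for both fibrils, by 2.36 (SE 0.241, adjusted p = 3.73e-07) and 2.66 (SE 0.247, adjusted p = 1.29e-07). S1pr1 fell less in astrocytes, by 1.19 (adjusted p = 4.16e-04) and 1.36 (adjusted p = 5.36e-04). S1pr3 gave -1.09 (adjusted p = 0.00368) and -1.05 (adjusted p = 0.00775), a higher response in microglia, and its level in the control microglia was far lower. The median difference over the members was 0.58 and 0.70, beside -0.038 and -0.0063 over all genes.

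The enzymes and the exporter also differed. Asah1 gave 1.08 (adjusted p = 0.00128) and 1.02 (adjusted p = 0.00240), and Sgpl1 gave 0.63 (adjusted p = 0.0118) and 0.57 (adjusted p = 0.0232). Spns2 differed with Aβ40, by 1.41 (adjusted p = 0.00290), and not detectably with Aβ42 (0.44, 95% interval -0.22 to 1.10). Sphk1 gave -3.18 with Aβ42 (SE 0.938, adjusted p = 0.0117), and without astrocyte control replicate 3 the value was -2.4 with an adjusted p of 0.131. It had failed the filter on low counts in microglia alone and entered this fit through the libraries with higher counts, so this call is not on a par with the others. Sphk2 (0.50 and 0.70) and Ugcg (0.58 and 0.34) did not pass the test with all libraries. Without astrocyte control replicate 2, Ugcg was called at 0.90 (adjusted p = 4.98e-04) and 0.66 (adjusted p = 0.00803), and without microglia Aβ42 replicate 1 at 0.66 with Aβ42 (adjusted p = 0.0468). Sphk2 was called with Aβ40 without astrocyte control replicate 1, astrocyte control replicate 3 or astrocyte Aβ40 replicate 1 (0.80 to 0.84, adjusted p 0.0349 to 0.0480).

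**Figure D3:**
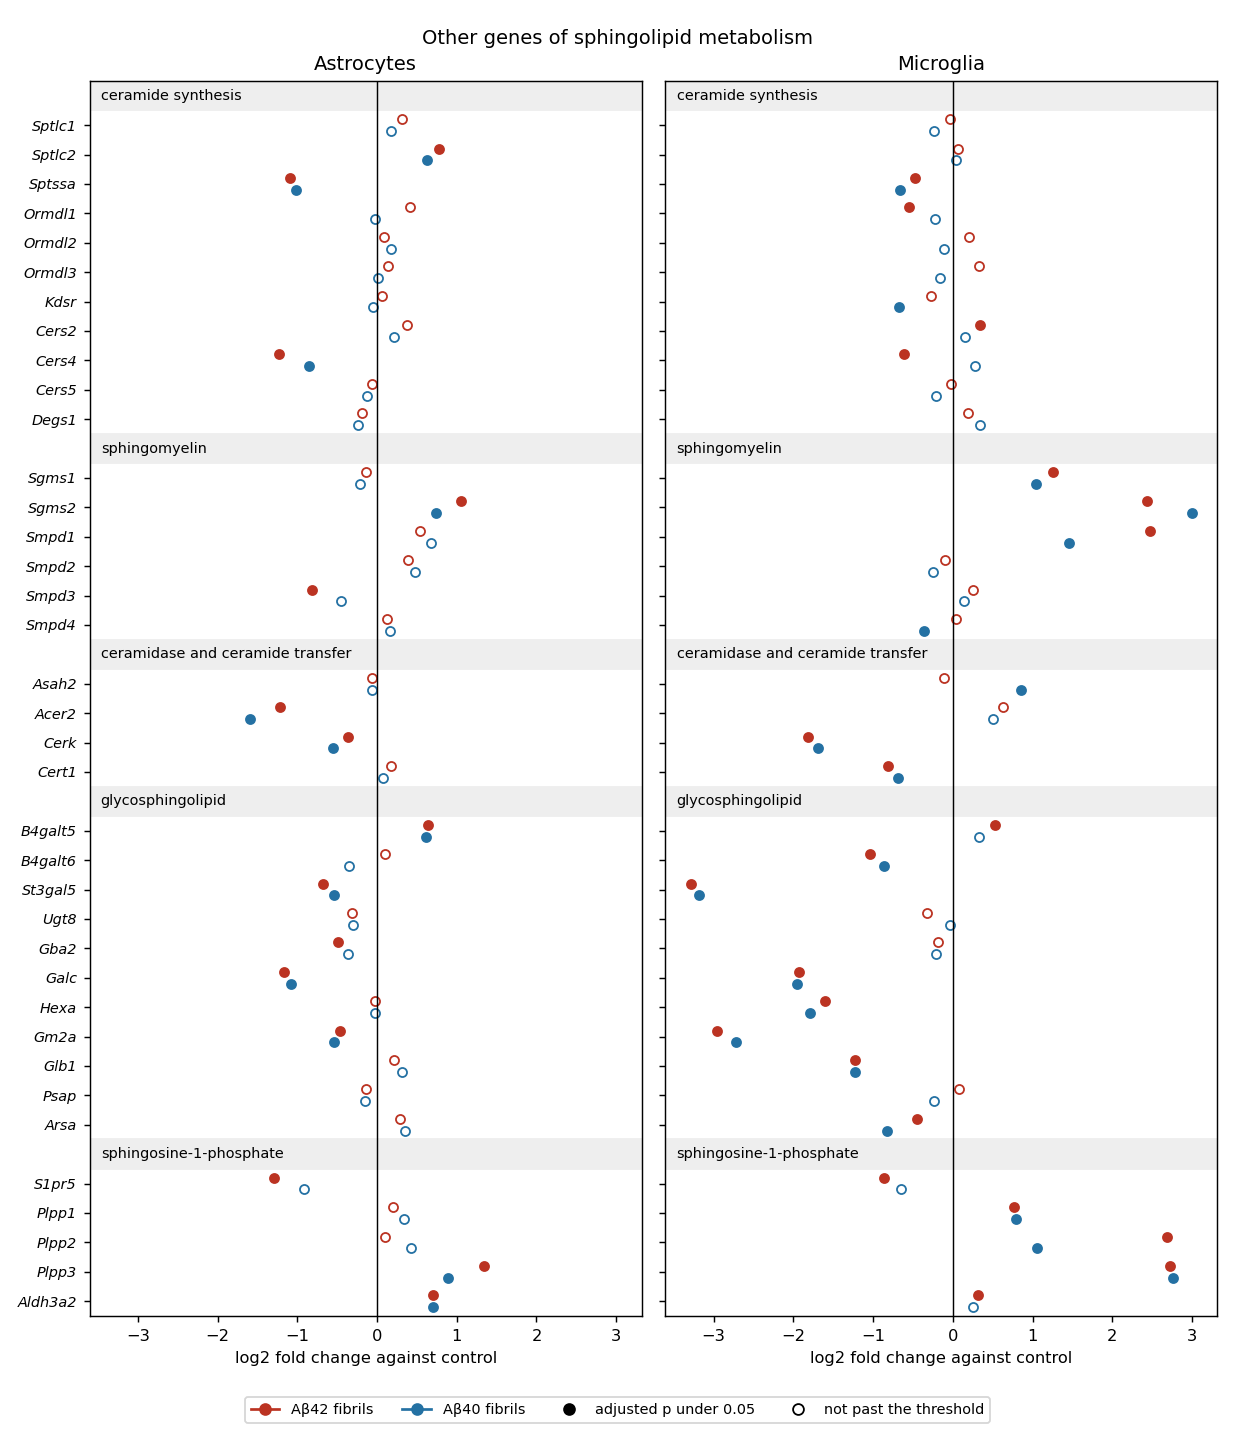
Log2 fold change of the other sphingolipid genes tested, 1 of them not drawn, in each cell type with each fibril (horizontal axis), with the genes on the vertical axis grouped by role. Each point is 1 gene, and filled points have an adjusted p under 0.05. The glycosphingolipid genes lie mostly below 0 in microglia, where 8 of 12 fell with either fibril.

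Of the 46 other sphingolipid genes found, 38 were tested in each cell type. In microglia most of the genes that build and degrade glycosphingolipids and gangliosides fell, while the sphingomyelin synthases rose. With Aβ42 fibrils 9 of the 38 rose and 14 fell, against 27.1% and 26.6% of all genes tested. With Aβ40 fibrils 7 rose and 13 fell, against 19.6% and 21.4%, so that with neither fibril was the share that rose above that of all genes. Of the 12 glycosphingolipid genes 1 rose and 8 fell with Aβ42 and 8 fell with Aβ40, at medians of -1.14 and -1.05 on the log2 scale. St3gal5, the synthase of ganglioside GM3, had log2 fold changes of -3.29 (SE 0.122, adjusted p = 1.24e-09) and -3.18 (SE 0.123, adjusted p = 1.94e-09). Hexa, a lysosomal gene of ganglioside breakdown, had -1.79 with Aβ40 (adjusted p = 4.14e-08), and Cerk, which phosphorylates ceramide, had -1.82 with Aβ42 (adjusted p = 3.50e-08).

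Sphingomyelin genes rose in microglia, 3 of 6 with Aβ42 and 3 of 6 with Aβ40, where 1 fell. Sgms2, which transfers phosphocholine to ceramide, went from 9.62 ± 0.421 CPM to 53.2 ± 3.87 CPM with Aβ42 and 77.2 ± 4.68 CPM with Aβ40 (SD, n = 3). Smpd1, the acid sphingomyelinase that yields ceramide, was 5.55-fold higher with Aβ42 (log2 fold change 2.47, adjusted p = 4.99e-08). Sgms1 was 2.06-fold higher with Aβ40 (1.04, adjusted p = 3.15e-06). Plpp3, a lipid phosphatase that dephosphorylates sphingosine-1-phosphate outside the cell, rose 6.60-fold with Aβ42 (2.72, adjusted p = 2.14e-09) and 6.77-fold with Aβ40 (2.76, adjusted p = 2.73e-09).

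In astrocytes 5 of the 38 rose and 10 fell with Aβ42, against 16.5% and 20.4% of all genes, and 5 rose and 7 fell with Aβ40, against 14.9% and 18.4%. Plpp3 again led the rise, at log2 fold changes of 1.35 (adjusted p = 3.87e-05) and 0.89 (adjusted p = 7.98e-04). Aldh3a2, which oxidizes the aldehyde left by the lyase, had 0.71 and 0.70, and B4galt5, a lactosylceramide synthase, had 0.64 and 0.61. The ceramide synthase Cers4 fell (-1.23 and -0.85), as did Galc, the lysosomal galactosylceramidase (-1.17 and -1.08). St3gal5 had -0.68 with Aβ42, and the alkaline ceramidase Acer2 had -1.60 with Aβ40. All of these had an adjusted p under 0.05 by edgeR, whose largest value among them was 0.00163.

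Between the fibrils, 0 of the 38 genes were called in astrocytes, with 3 at an unadjusted p under 0.05, and in microglia 4 were higher and 3 lower with Aβ42, near the 11.3% and 9.01% of all genes. Smpd1 was higher by 1.02 (adjusted p = 0.00549) and Plpp2 by 1.62 (adjusted p = 0.0115). Sgms2 was lower, at -0.57 (adjusted p = 0.0144), as were Cers4, at -0.89, and the neutral ceramidase Asah2, at -0.97. Smpd1 and Sgms2, which both rose with Aβ42, thus differed between the fibrils in opposite directions in this fit. In an edgeR fit of the compared groups alone Plpp2, Sgms2, Cers4 and Asah2 lost their calls (adjusted p 0.0568 to 0.0771). Sgms2 also lost it without Aβ42 replicate 2 or 3 or Aβ40 replicate 1 or 2 (adjusted p 0.0609 to 0.0825). Leaving out Aβ42 replicate 1 raised these counts to 14 and 7, and leaving out another Aβ42 or Aβ40 library lowered them to 1 or 2 and 0 or 1.

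In the untreated cells 12 of the 38 were higher in astrocytes and 19 lower, against 34.5% and 34.2% of all genes. The phosphatases Plpp1 (log2 difference 2.30, adjusted p = 1.82e-11) and Plpp3 (2.27, adjusted p = 2.38e-11) and the serine palmitoyltransferase subunit Sptssa (1.85) led on the astrocyte side. B4galt6 (-3.02) and the GM2 activator Gm2a (-2.56) were among those on the microglial side.

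The genes whose levels ran most like those of a member were named from Pearson's r of log2 scaled CPM over the 9 libraries of a cell type, as a description. Like Sphk1 in astrocytes were Atg4b (r = 0.997), Mrps12 (0.996) and Yif1b (0.996), where control replicate 2 sets most of the spread. Like Spns2 in astrocytes were Rhbdl3 (0.991), Dnali1 (0.989) and Mok (0.989). In microglia Sphk1 ran most like C1ql1 (0.967), Rita1 (0.963) and Mier2 (0.955), and S1pr2 most like Eef2k, Fgd2 and Il16 (each 0.995). These libraries share their treatment groups and depths, and such genes were picked from all genes tested.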

How the data were processed

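Stranded mRNA libraries were made from cultured rat glia, 3 in each of 6 groups, which were taken from the sample titles. The submitters' processing notes name STAR, Salmon, DESeq2 and the rn5 assembly, without versions. The authors deposited 1 table of whole-number read counts per library, not normalized. Lines for reads on no gene or on several genes (26.0% to 34.2% of an astrocyte library, 21.7% to 24.5% of a microglia library) were left out. Older symbols were joined to current ones, and Sgpp1, Cers6, Acer3 and Mfsd2b were not analysed here.

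Counts were scaled by TMM, filtered by filterByExpr and fitted by edgeR 4.0.16 (glmQLFit and glmQLFTest, R 4.3.3, limma 3.58.1), with the 3 groups of a cell type together, or all 18 libraries for comparisons of cell types. P-values were adjusted by Benjamini-Hochberg over all genes tested. CPM values of the members are relative to library totals scaled over all 18 libraries. Marker sums, levels of single markers and the limits of 3 counts were scaled within a cell type. Tests used the fits above. SE is the log2 fold change divided by the root of its F statistic. Exact intervals of summed counts and the limit of 3 counts cover counting error only, and the shallow libraries have the higher limits. The procedure was tested on simulated data. The replicate numbers were not used as pairs, and all replicates of a group differed by more than sampling noise. In astrocytes, control replicate 2, Aβ42 replicate 3 and Aβ40 replicate 1 deviated from their group means together (r of 0.494 to 0.527). No fit modeled this, and its cause was not tested. Alternatives were DESeq2 size factors, library totals, no filter, 10 counts in every library, DESeq2 1.42.0, the replicate number as a block, the compared groups alone, and leaving out libraries in turn or both astrocyte libraries whose tables are named in another form. Leave-one-out fits of microglial Sphk1 without the filter were added after seeing the data.

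The members and lists were chosen with earlier results of these data known. Named were all members, in each comparison the 3 called genes of the other list in each direction with the smallest p, and for Sphk1 and the member with the smallest p in each cell type the 3 genes most like it (prior count 2). A gene named by this rule is not reported here.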

Additional observations from a re-analysis of the deposited data

Results flagged for a closer look

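The response to fibrils differed between the cell types for 7 members by an interaction contrast tested in edgeR (quasi-likelihood, Benjamini-Hochberg adjusted p under 0.05), given here as the log2 fold change in astrocytes minus that in microglia. With Aβ42 fibrils the differences were -3.18 for Sphk1, 1.19 for S1pr1, 2.36 for S1pr2, -1.09 for S1pr3, 0.63 for Sgpl1 and 1.08 for Asah1. With Aβ40 fibrils they were 1.36 for S1pr1, 2.66 for S1pr2, -1.05 for S1pr3, 0.57 for Sgpl1, 1.41 for Spns2 and 1.02 for Asah1. Both sets share the control libraries. Opposite directions, each past the test within its cell type, were found for S1pr2, which rose in astrocytes and fell in microglia. Sphk1 rests on 0 to 57 counts per library and did not pass the filter on low counts in microglia alone. Without astrocyte control replicate 3 the Sphk1 difference was -2.40, with an adjusted p of 0.131. The Sgpl1 difference had an adjusted p of 0.0529 to 0.0836 when certain libraries were left out (with Aβ42, astrocyte control replicate 1 or Aβ42 replicate 2, and with Aβ40, astrocyte control replicate 1, astrocyte Aβ40 replicate 1 or 3, or microglia Aβ40 replicate 1). Of the 7 microglial markers 7 fell with either fibril in astrocytes, and in microglia 5 fell with Aβ42 and 6 with Aβ40 while Itgam rose with both. Their part in these differences was not tested.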

How the results depend on the processing

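Over the alternatives, 1488 log2 fold changes of named genes kept their direction and their side of the threshold, 47 lost the call, 16 gained it and 31 changed sign, all 31 without a call. The depth of the shallow libraries limits Sphk1, and with 3 libraries a group small differences such as those of Sphk2 and Sgpl1 sit near the threshold. Scaling by library totals moved the median of all genes to 0.28 in the comparison of control cells. The causes were not tested.

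With library totals, Asah1 was at -0.0039 with Aβ40 in astrocytes, Sgpl1 at -0.0045 with Aβ40 in microglia and Spns2 at 0.19 between control cells, and Ugcg was called with Aβ42 in microglia (-0.33). With 10 counts in every library Spns2 was at 0.0085 there, 1 member was higher in control astrocytes, and for the Aβ42 difference of cell types 1 member and 5 other sphingolipid genes were lower, the filter leaving fewer genes. Without the filter 1 member, Sphk1, was higher with Aβ42 than with Aβ40 in microglia. In the compared groups alone, 1 member was lower and 1 other gene higher with Aβ42 than with Aβ40 in astrocytes, and 1 other gene was higher and 0 lower in microglia. Without both astrocyte libraries whose tables are named in another form, 2 members fell with Aβ42, and Sphk1, Asah1 and Ugcg were at 0.028, -0.048 and -0.016 between the fibrils. With the replicate number as a block, Asah1 was at -0.0026 and S1pr1 at -0.039 between the fibrils in microglia and 1 other gene was lower. The block moved no other count of members or sphingolipid genes by over 1.5 times. For same-numbered libraries, deviations from the group means had r of -0.526 to 0.358 in astrocytes and -0.194 to 0.217 in microglia. Differently numbered libraries had r of -0.462 to 0.527 and -0.215 to 0.225. With 3 libraries a group, whose deviations are tied to one another, these values cannot show whether same-numbered libraries were paired.

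Over all genes, counts moved by over 1.5 times only between the fibrils. In astrocytes 7 genes were higher and 3 lower with Aβ42 than with Aβ40, which became 8 and 5 without the filter, 3 and 3 with 10 counts in every library, 80 and 61 by DESeq2, 0 and 0 with the block, 129 and 136 in the compared groups alone, 63 and 57 without both libraries named in another form, 2 and 2 without Aβ42 replicate 1, 0 and 1 without Aβ40 replicate 1, and 0 and 0 without another Aβ42 or Aβ40 library. In microglia 1222 and 976 became 400 and 352 with the block, 59 and 47 in the compared groups alone, 3018 and 2986 without Aβ42 replicate 1, and at most 84 and 70 without another Aβ42 or Aβ40 library.

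Leaving out each library in turn gave ranges. In astrocytes with Aβ42, 1 to 2 members fell (2 without control replicate 2), 5 to 8 other genes rose (8 without control replicate 3) and 6 to 11 fell (6 without Aβ42 replicate 2), with Sphk1 at -0.020 to 1.15 and Asah1 at -0.014 to 0.35. With Aβ40, 4 to 8 other genes rose (8 without control replicate 3) and 6 to 11 fell (11 without control replicate 2), with Asah1 at -0.087 to 0.27. Between the fibrils in astrocytes, Sphk2 was at -0.070 to 0.19, Ugcg at -0.016 to 0.13, Sphk1 at -0.097 to 0.026 and Asah1 at -0.049 to 0.18. In microglia 1 to 3 members rose with Aβ42 (1 without Aβ42 replicate 2) and 1 to 2 with Aβ40 (1 without Aβ40 replicate 2), where Sgpl1 was at -0.023 to 0.076. Between the fibrils in microglia, 0 to 1 members were higher and 0 to 1 lower, 1 to 14 other genes were higher and 0 to 7 lower (1, 1, 14 and 7 without Aβ42 replicate 1), with Asah1 at -0.19 to 0.14 and S1pr1 at -0.027 to 0.15. Between control cells Spns2 was at -0.27 to 0.078. For the difference of cell types, 1 to 2 members were lower with Aβ42 (1 without astrocyte control replicate 3), and Sphk1 was at -1.56 to 4.59 with Aβ40.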
